A study of Mus musculus with 4 samples.

Results

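The genes described here are the constant regions of the mouse immunoglobulin heavy chain, the part of an antibody that sets its isotype. They were read with 7 of the 45992 probes on the array. The array's own names put 5 of them among heavy-chain constant regions (IGHM, IGHD, IGHG1, IGHG2C and IGHA). The other 2 carry the NCBI gene numbers of Ighg3 and Ighg1, so the 7 probes cover 6 genes and gamma 1 has a pair of probes. Probes of the array are written in capitals where the array names them so.

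The study put RNA of cultured B cells on 4 single-colour Illumina bead arrays. Every sample had the genotype prdm1-/- on a C57BL/6 background, so the controls lack Blimp-1, the transcription factor that drives plasma cell differentiation, as the other cells do. All cultures received CD40 ligand with IL-4 and IL-5 at 10 U/mL each, signals that mimic T-cell help, and were sorted by GFP fluorescence on day 4. The GFP-positive cells, labelled pre-plasmablasts, gave 2 arrays and the GFP-negative cells, labelled B cell blasts, gave 2. The sample titles call the cells of both groups B cell blasts. The locus that carries GFP is not named in the labels, and neither is the source of the replicates (culture or mouse). P-values therefore rest on a spread between arrays that may be technical only.

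A resting B cell carries IgM and IgD, whose mRNAs come from 1 long transcript by alternative splicing. After activation, class switch recombination can join the same variable region to a constant region farther along the locus, so that the cell makes IgG, IgE or IgA. CD40 ligand and cytokines choose the target, and in the mouse IL-4 is known to direct switching to IgG1 and IgE. Before recombination the target region is also transcribed from a promoter of its own, as a germline transcript that holds the same constant exons. In the order of the locus the genes are Ighm, Ighd, Ighg3, Ighg1, Ighg2b, Ighg2c, Ighe and Igha. Ighg2b and Ighe were not analysed here.

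Values are the deposited normalized intensities, in log2-like units between 7.71 and 16.07, with the same spread of values on every array. Their exact transformation is unknown, and values of probes detected on no array fill a narrow band (central 95% from 7.88 to 8.16), so a change of a dim probe may be understated. Of all probes, 15787 had a detection p under 0.05 on at least 2 arrays and were tested, all 7 heavy-chain constant probes among them.

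Signals of the IgG3 and IgG1 constant region probes were higher in GFP-positive cells, that of the IgD probe was lower, and that of IgM stood near the top of the scale in both groups. Of the 7 probes, 3 rose (Ighg3, IGHG1 and Ighg1), 1 fell (IGHD) and 3 were not called (IGHM, IGHG2C and IGHA), by limma at an adjusted p under 0.05. Among all tested probes 5.81% rose and 5.2% fell. The median change of the 7 was 0.41, against -0.02 over all tested probes. The groups did not overlap for 6 of the 7, which says little by itself, since 55.7% of all tested probes had no overlap.

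**Figure D1:**
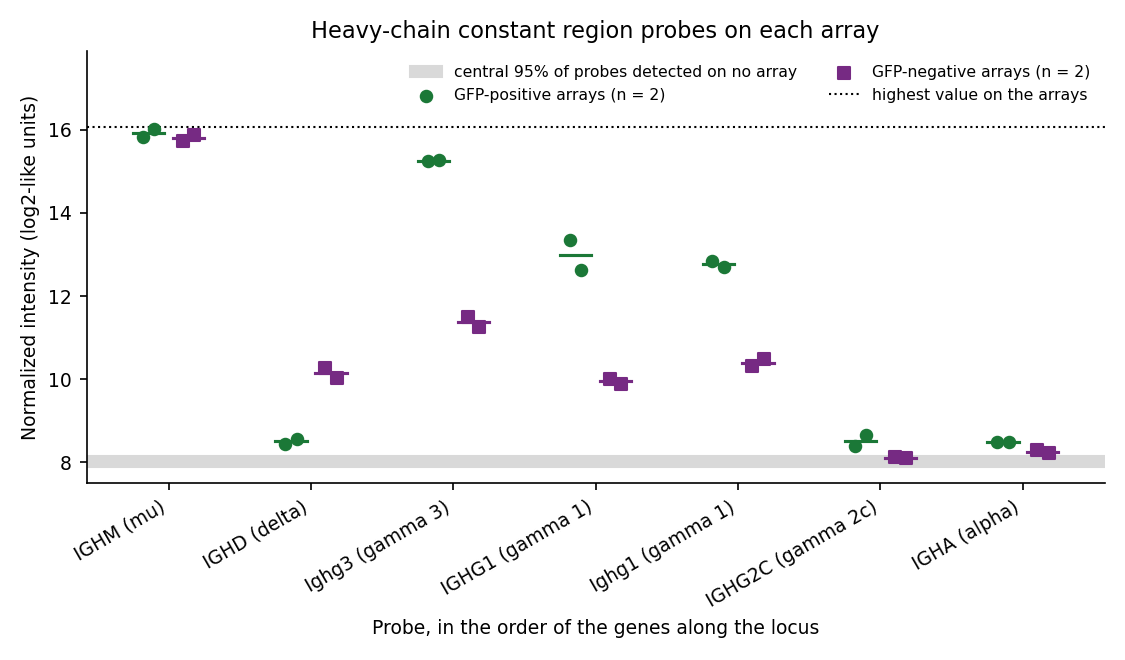
Normalized intensity (log2-like units) of the 7 heavy-chain constant region probes on each of the 4 arrays, with a short line at each group's mean, the grey band holding the central 95% of values of probes detected on no array (7.88 to 8.16) and the dotted line at the highest value on the arrays (16.07). The gamma 3 and gamma 1 probes are higher in GFP-positive cells, the delta probe is lower, the mu probe lies at the top of the scale in both groups, and the gamma 2c and alpha probes lie near the dim end.

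IGHM, the constant region of IgM, read 15.82 and 16.02 in GFP-positive cells and 15.72 and 15.88 in GFP-negative cells. The groups overlapped, and the difference of 0.12 (95% interval -0.15 to 0.39, adjusted p = 0.565, limma) was too small to be told from 0 against the spread between replicates. All 4 values were within 0.35 units of the highest value on the arrays, above at least 99.8% of the probes of each array. Whether a brighter probe could still show a rise there was not tested. The only other probe that carries the gene number of a heavy-chain constant gene, a probe of Ighm, read 16.04 and 16.00 against 15.97 and 15.96 and had a change of 0.05 (SE 0.08, adjusted p = 0.731). Both probes of the mu constant region thus lay at the top of the scale and neither was called.

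IGHD, the constant region of surface IgD, read 8.43 and 8.57 in GFP-positive cells and 10.26 and 10.02 in GFP-negative cells. Both GFP-positive arrays were well below both GFP-negative arrays. The probe fell by 1.64 (SE 0.11, 95% interval -1.92 to -1.35, adjusted p = 0.00184, limma). Only 30 of the 15787 tested probes had a larger fall. It was detected on all 4 arrays, but its GFP-positive values lay only just above the band of undetected probes, so no fold is given.

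Ighg3, the constant region of IgG3, an isotype best known from responses to bacterial polysaccharides, had the largest change of the 7. It read 15.24 and 15.27 in GFP-positive cells and 11.51 and 11.25 in GFP-negative cells, with replicates far closer to each other than to the other group. The rise was 3.88 (SE 0.11, 95% interval 3.61 to 4.15, adjusted p = 4.50e-04, limma). No fold is given, since its GFP-positive values lay in the upper range of the scale, where it is not known whether a rise shows in full. It was the fourth largest rise of all tested probes and larger than that of the eGFP probe, which reads the reporter used for the sort and rose by 3.40 (SE 0.08, adjusted p = 2.97e-04). Within each array the probe stood above 96.6% and 96.0% of all probes in GFP-negative cells and above 99.7% in both GFP-positive arrays.

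Gamma 1, the constant region of IgG1, was read by both of its probes as higher in GFP-positive cells. IGHG1 read 13.34 and 12.63 against 10.01 and 9.89. Ighg1 read 12.84 and 12.70 against 10.31 and 10.48. Neither probe's groups overlapped. IGHG1 rose by 3.04 (SE 0.23, 95% interval 2.46 to 3.62, adjusted p = 0.00236, limma), or 8.22-fold if the units are taken as log2, and Ighg1 by 2.37 (SE 0.10, 95% interval 2.12 to 2.63, adjusted p = 9.17e-04), or 5.18-fold. The intervals of the 2 probes overlap, and the difference between them was not tested. The IGHG1 probe was the less even in GFP-positive cells, with an SD of 0.50 over n = 2 against 0.10 for Ighg1. The rises ranked 8 and 10 among all tested probes.

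Gamma 3 and gamma 1 constant regions share much of their sequence, and the files hold no probe sequences. Whether each probe binds only its own gamma transcript was not tested, and a reading of Ighg3 may hold some signal of other gamma transcripts. Nor was it tested whether the probes read switched, germline, membrane or secreted forms. In bulk RNA, more cells with a transcript and more transcript per cell cannot be told apart.

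IGHG2C, the constant region of IgG2c, which C57BL/6 mice carry in place of IgG2a, read 8.38 and 8.66 in GFP-positive cells and 8.12 and 8.10 in GFP-negative cells. Its GFP-negative values lay inside the band of probes detected on no array, and it was detected on 2 of the 4 arrays. The change of 0.41 (SE 0.11, 95% interval 0.12 to 0.69) did not pass (adjusted p = 0.0853, limma), but did with an intensity trend in the fit (adjusted p = 0.0264). With the GFP-negative values raised to the dimmest probe detected on all arrays, the difference was 0.33. IGHA, the constant region of IgA, read 8.48 and 8.49 against 8.29 and 8.22 and was detected on all 4 arrays. Its change of 0.23 (SE 0.08, 95% interval 0.03 to 0.43) did not pass either (adjusted p = 0.139, limma). Both probes had higher values in GFP-positive cells without an overlap, near the dim end of the scale.

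**Figure D2:**
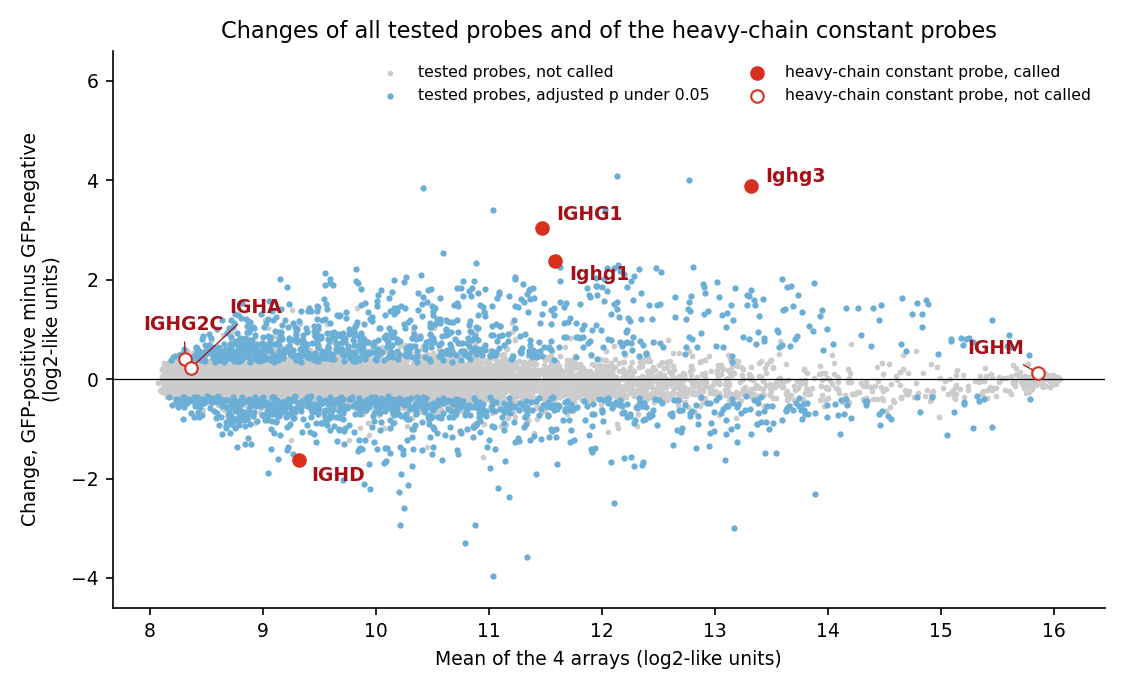
Change between the groups (GFP-positive minus GFP-negative, log2-like units) against the mean of the 4 arrays for the 15787 tested probes, with the 7 heavy-chain constant probes as large circles, filled where called. Ighg3 (3.88), IGHG1 (3.04) and Ighg1 (2.37) lie at the upper edge of the cloud, IGHD (-1.64) toward the lower edge, and IGHM, IGHG2C and IGHA inside or at the rim of the probes that were not called.

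The order of the changes was thus Ighg3, IGHG1, Ighg1, IGHG2C, IGHA, IGHM and IGHD. The interval of Ighg3 did not touch that of Ighg1, and its lower end (3.61) lay just below the upper end of IGHG1 (3.62). The intervals of IGHG2C, IGHA and IGHM overlapped one another. All 3 gamma 3 and gamma 1 probes rose more than each of the 104 tested heavy variable and 102 tested kappa variable segment probes. Of either class 0 had a larger change. The lead of Ighg1 (2.37) was narrow, since the kappa probe IGKV4-50 rose by 2.34 and the heavy probe IGHV1S129 by 2.31. Both values lay inside the interval of Ighg1 (2.12 to 2.63). Of the variable probes, 99 of the 104 heavy and 99 of the 102 kappa had a larger change than IGHM (0.12). Among all 15787 tested probes the change of IGHM ranked 3735 from the top. IGHM is a weak yardstick, since it lay near the top of the scale, where a rise may not show. These comparisons set single changes side by side and were not tests.

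Each of the 4 calls held whichever array was left out. Ighg3 then changed by 3.75 to 4.01 (adjusted p at most 0.00543), IGHG1 by 2.68 to 3.39 (at most 0.00770), Ighg1 by 2.29 to 2.46 (at most 0.00720) and IGHD by -1.76 to -1.52 (at most 0.0109). The widest range was that of IGHG1, whose GFP-positive replicates differed most. The group left with 1 array was assumed to vary like the other. A direction without an overlap cannot turn when 1 array is left out, so the kept directions add nothing. An exact permutation of 2 against 2 arrays cannot give a p below 0.333.

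**Figure D3:**
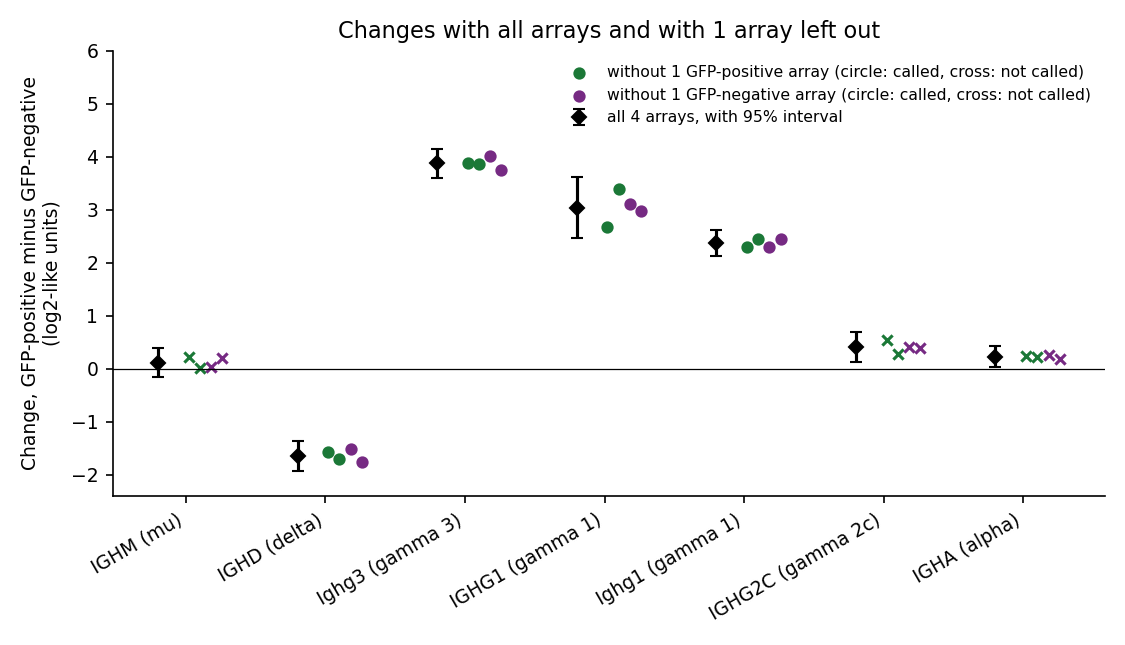
Change of each heavy-chain constant probe (GFP-positive minus GFP-negative, log2-like units) with all 4 arrays and its 95% interval (diamonds), and with 1 GFP-positive or 1 GFP-negative array left out (circles where called, crosses where not). Ighg3, IGHG1, Ighg1 and IGHD stay called throughout, and IGHM, IGHG2C and IGHA are not called in any of these fits.

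The constant regions of the light chains, which pair with every isotype, had smaller changes than the gamma 3, gamma 1 and delta probes. The kappa and lambda probes all stood near the top of the scale (16.07) already in GFP-negative cells. A rise as large as those of the gamma probes could not show there, so that part of the contrast was set beforehand. IGKC, the kappa constant region, read 15.72 and 15.86 against 15.78 and 15.80, with a difference of 0.00 (SE 0.09, adjusted p = 0.995), and Igkc, a second kappa probe, had a change of 0.04 (adjusted p = 0.807). The lambda constant probes IGLC1, IGLC2 and IGLC3 rose by 0.66 (adjusted p = 0.0319), 0.49 (adjusted p = 0.0187) and 0.50 (adjusted p = 0.0415). Their values lay between 14.72 and 16.06, near the top of the scale as for IGHM.

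Of the machinery of switch recombination, which cuts and rejoins the locus, 12 of 39 listed genes had a tested probe with a symbol. Of these, 0 rose and 0 fell by limma at an adjusted p under 0.05 (at an unadjusted p under 0.05, 0 were higher and 2 lower). Over all tested probes 5.81% rose and 5.2% fell, so counts of 0 among 12 genes are near that background. The median change was -0.10 and the range -0.50 to 0.21. Ung, the glycosylase that removes uracil from DNA during switching, read 8.67 and 8.69 against 8.75 and 8.70, a difference of -0.04 (SE 0.08, adjusted p = 0.795). The lowest change was that of Trp53bp1, a DNA repair factor, at -0.50 (SE 0.17, adjusted p = 0.139), and its second probe had -0.36. It was chosen after its values were seen.

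Among signals that direct switching and germline transcription, 11 of 36 listed genes were tested, and 3 fell, 0 rose and 8 were not called, with a median change of -0.24. Over all tested probes 5.2% fell and 5.81% rose. Cd40, the receptor of the CD40 ligand in the culture, read 9.21 and 9.34 in GFP-positive cells and 10.37 and 10.30 in GFP-negative cells. It fell by 1.06 (SE 0.09, adjusted p = 0.00295). Ifngr2, a chain of the receptor for interferon gamma, which favours IgG2c in C57BL/6 cells, fell by 1.01 (SE 0.13, adjusted p = 0.0102). Jak3, the kinase at the common gamma chain of the IL-4 receptor, fell by 0.81 (SE 0.14, adjusted p = 0.0252). Its second probe had a change of -0.39 that was not called (adjusted p = 0.0975), and dropping GFP-positive replicate 2 (adjusted p = 0.0531) or either GFP-negative array (adjusted p = 0.0740 and 0.0626) ended the call. Stat6, the transcription factor that carries the IL-4 signal to the germline promoters, had a change of -0.04 (SE 0.12, adjusted p = 0.880). Tgfbr1, a chain of the receptor for TGF-beta, which directs switching to IgA, read 10.18 and 10.59 against 11.03 and 11.64, and its change of -0.95 (SE 0.24) was not called (adjusted p = 0.0649). It was called with an intensity trend (adjusted p = 0.0290) and when GFP-negative replicate 1 was dropped (-1.25, adjusted p = 0.0222), and it was chosen after its values were seen.

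Of genes that process heavy-chain RNA, 10 of 18 were tested, and 1 rose, 1 fell and 8 were not called (median change 0.00), where 5.81% of all tested probes rose and 5.2% fell. Counts of 1 in each direction among 10 genes are near that background. Zfp318, a nuclear protein that mouse B cells need to make the IgD mRNA, moved in the same direction as the IGHD probe. Whether the falls of Zfp318 and of the IGHD probe are linked was not tested. Zfp318 read 9.21 and 9.39 in GFP-positive cells and 10.52 in both GFP-negative arrays, without an overlap. It fell by 1.22 (SE 0.09, adjusted p = 0.00246), a call that held whichever array was left out (adjusted p at most 0.0112). Ell2, an elongation factor that favours the secreted form of heavy-chain mRNA, read 9.30 and 8.87 against 8.42 and 8.34 and rose by 0.70 (SE 0.15, adjusted p = 0.0439). Dropping GFP-positive replicate 1 (adjusted p = 0.0816) or either GFP-negative array (adjusted p = 0.0867 and 0.145) ended that call. Hnrnpll, which also acts on immunoglobulin splicing, was detected on fewer than 2 arrays and was not tested.

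Of 20 genes that pair with or fold heavy chains, 4 were tested by symbol, and 1 rose, 0 fell and 3 were not called, with a median change of 0.70, against 5.81% higher and 5.2% lower among all tested probes. Jchain, which joins IgM and IgA into polymers, read 9.84 and 9.34 against 8.16 and 7.95, and was detected on 2 of the 4 arrays. Its GFP-negative values lay in the band of undetected probes, so its rise is a lower bound, at least 1.40 with these values raised to the dimmest probe detected on all arrays (1.53 in the limma fit, SE 0.18, adjusted p = 0.00782). The list's only call rests on this gene, which passed the detection filter with 2 arrays. Hspa5, the chaperone BiP that binds unpaired heavy chains, had a change of 1.35 that was not called (SE 0.45, adjusted p = 0.131). Its replicates differed widely, with 12.10 and 11.18 against 10.86 and 9.73, and it was chosen after its values were seen.

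Of 13 receptors for antibody Fc parts and their relatives, 4 were tested, and 3 fell, 0 rose and 1 was not called, with a median change of -0.58, while 5.2% of all tested probes fell. Fcer2a, the low-affinity IgE receptor CD23, read 10.22 and 9.78 against 12.73 and 12.00 and fell by 2.36 (SE 0.27, adjusted p = 0.00724), and its second probe had a change of -1.64. Fcrl1, an Fc receptor-like protein of B cells, fell by 0.76 (SE 0.13, adjusted p = 0.0205), and Pigr, which carries polymeric IgA and IgM across epithelia, by 0.39 (SE 0.08, adjusted p = 0.0326). Dropping either GFP-positive array ended the call of Fcrl1 (adjusted p = 0.0896 and 0.0560), and dropping any 1 of the 4 arrays that of Pigr (adjusted p between 0.109 and 0.145). In each of these 5 lists the genes tested were those with a detected probe and a symbol, so they are not the whole pathway.

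**Figure D4:**
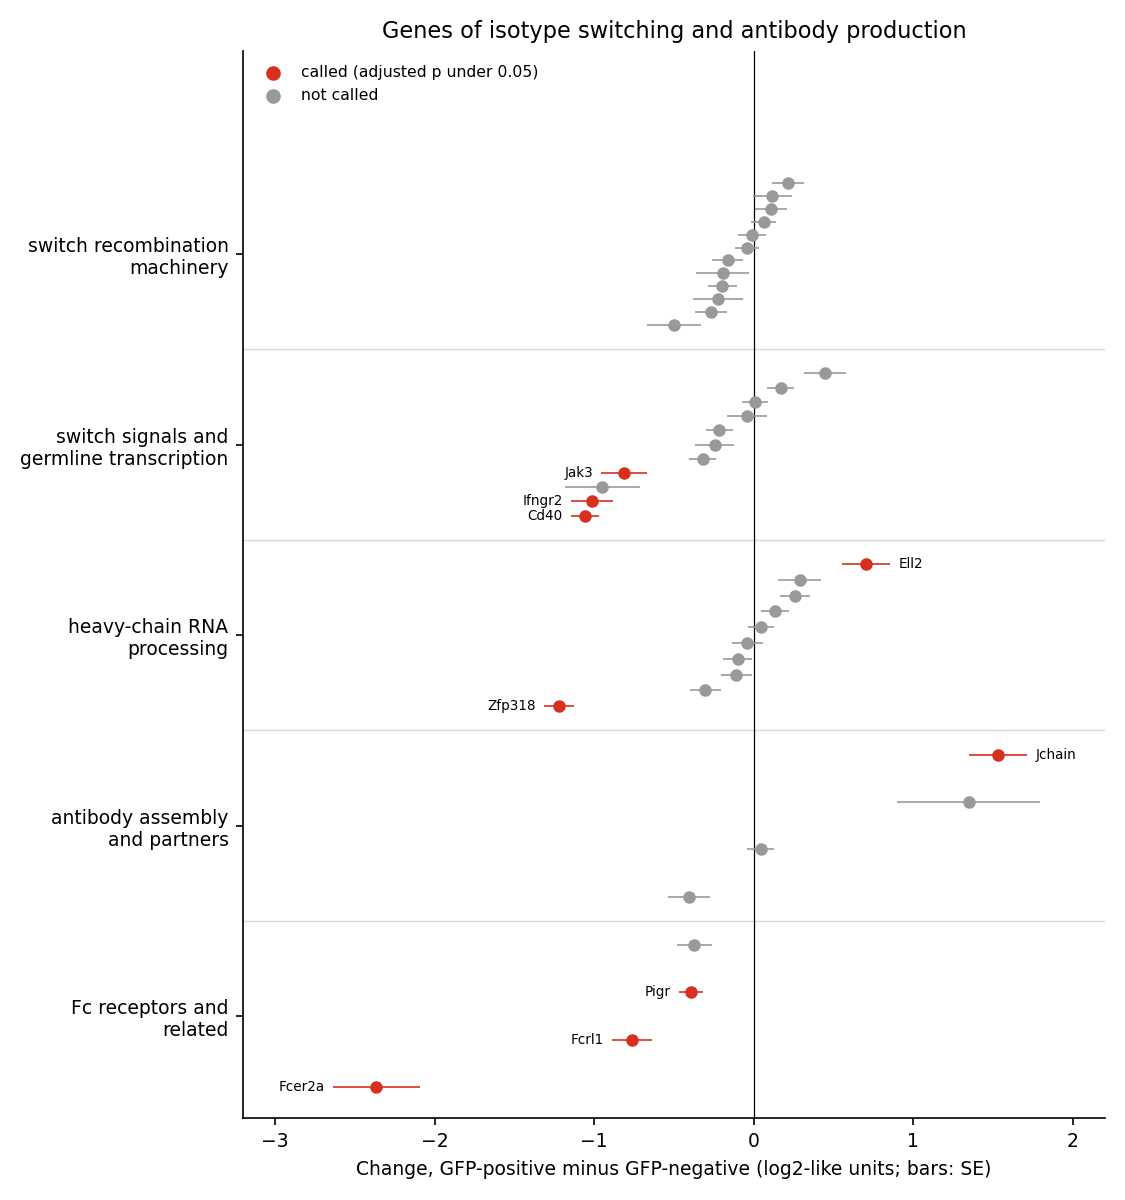
Change (GFP-positive minus GFP-negative, log2-like units, with SE) of each tested gene of the 5 lists, at its probe with the highest mean, red and named where called. Ell2 (0.70) and Jchain (1.53) rose, and Cd40, Ifngr2, Jak3, Zfp318, Fcer2a, Fcrl1 and Pigr fell. Of the 12 tested genes of the recombination machinery 0 were called, near the share over all tested probes (5.81% higher, 5.2% lower).

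The genes whose profile over the 4 arrays was most like that of each called probe were sought among 4547 tested probes with a symbol outside immunoglobulin genes. Likeness was the Euclidean distance between the 4 values after each probe's own mean was taken away, in the same units. The probe nearest to IGHD was the second probe of Fcer2a (distance 0.12), followed by probes of Btg1 (0.23), Srpk3 (0.23), Cpm (0.23) and Pacsin1 (0.25). Ighg1 had Crip1 nearest (0.19), then Cdkn1a (0.46 and 0.62 at its probes) and Sspn (0.66). These 4 probes were also the nearest to IGHG1, at 0.93 to 1.35, and to Ighg3, at 1.66 to 2.16. The values were not scaled, so the distance grows with the gap between the sizes of 2 changes, and these distances over 4 arrays are a description.

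The labelled cell type could be checked only in part. None of the 8 B-cell markers listed (such as Cd79a and Cd79b) had a probe with a symbol, while the mu and kappa constant probes stood at the top of the scale in every array. Of T-cell markers, 2 of 9 had a probe and 0 were detected on any array, and of NK markers 1 of 5 had a probe and 0 were detected. Of myeloid markers, 6 of 9 had a probe, 2 (Cd68 and Itgam) were detected on at least 2 arrays and 3 on none. The mean level of these 6 was 8.28 and 8.26 in GFP-positive and 8.12 in both GFP-negative arrays. Cd68 and Itgam were both higher in GFP-positive cells without an overlap, by 0.33 and 0.32. Neither was called (adjusted p = 0.128 and 0.0565, limma), though Itgam came close. Itgam was detected on 2 of the 4 arrays, and its GFP-negative values (7.96 and 7.98) lay in the band of undetected probes. Its p-value and the size of its difference therefore carry little weight. The part of myeloid cells in the results was not tested. Of erythroid markers, 2 of 4 had a probe, with a mean level of 8.54 and 8.44 against 8.72 and 8.42 and no call.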

How the data were processed

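RNA of GFP-positive and GFP-negative cells was measured on 2 arrays each. The authors deposited normalized intensities on a log2-like scale, made with lumi per the submitters' processing notes. Its version, background and transformation steps were all not given in the sources used here. Between the 4 arrays, sorted values differed by at most 0.00267. A second deposited table holds 4 unnormalized signal columns that match no sample label and were not used. Its deposited detection p-values were used without linking arrays to samples, to number the arrays that detected each probe.

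Probes detected (p under 0.05) on at least 2 arrays were tested for GFP-positive minus GFP-negative by limma 3.58.1 (R 4.3.3; lmFit, then eBayes with neither trend nor block; 2 residual plus 3.43 prior degrees of freedom). P-values are two-sided, adjusted by Benjamini and Hochberg over all 15787 probes, with calls under 0.05. Tested on simulated data for this comparison (15787 probes), the fit called 6, 30, 43 and 44 of 50 changed probes at true changes of 0.5, 1, 2 and 3. It also called 4 unchanged probes. Only 50 probes were changed at each size, while 1739 were called in the real data, so the shares found there may differ. With 2 arrays a group, precision is limited by their number.

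Of 11868 probe names read as NCBI gene numbers, 9807 were in the gene table (assembly GRCm38.p6). It gave symbols and gene order only, since no build is named for the array. A listed gene was read at its probe with the highest mean. The rule for named genes took every heavy-chain constant probe, a short set of regulators and light-chain constant probes, up to 5 called genes of each list with the largest change, and the 5 most alike probes with a symbol; some genes this rule names are not reported here. The members and lists were chosen with earlier results of these data known. Alternatives were other detection filters, cyclic loess, median centring, an intensity trend, robust eBayes, a replicate block, each array left out, and 1 probe per gene or every probe.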

Additional observations from a re-analysis of the deposited data

How the results depend on the processing

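The calls of Ighg3, IGHG1, Ighg1 and IGHD, and the lack of a call for IGHM and IGHA, were the same in every alternative run. Their number was 3 higher and 1 lower in each, except that the replicate block and the intensity trend also called IGHG2C (0.41 in both, adjusted p = 0.00570 and 0.0264), for 4 higher. Over the other alternatives without a left-out array, Ighg3 lay between 3.88 and 3.95, and IGHD between -1.64 and -1.61. Most of these could not alter the changes themselves: the detection filters, robust eBayes and 1 probe per gene left each change as it was. Median centring hardly moved arrays that already shared their values. Only cyclic loess shifted the changes by more than a trace, so the agreement of the rest concerns the p-values alone. With 1 array left out, changes ranged from 0.27 to 0.54 for IGHG2C, 0.19 to 0.27 for IGHA and 0.02 to 0.22 for IGHM. List counts moved more. Without a detection filter, 0 genes of heavy-chain RNA processing were higher, and among probes detected on all 4 arrays 0 of antibody assembly, since Jchain was then not tested. With 1 array left out, higher counts ran from 0 to 1 for RNA processing, 1 to 2 for assembly (Hspa5 passed once) and 0 to 1 for switch signals, and lower counts of Fc receptors from 1 to 2 and of switch signals from 2 to 3. The replicate block gave 2 lower in the recombination machinery (Trp53bp1 and Supt6) and 1 higher and 5 lower in switch signals. It gave 2 lower in RNA processing, and 2 higher and 1 lower in assembly. All 4 tested Fc receptor genes were lower with the block, Fcgr2b newly so (adjusted p = 0.00800, limma). The labels state no such pairing. The deviations of same-numbered arrays correlated at 0.43 over 15787 probes, a hint from the data only. The block moved all calls from 918 higher and 821 lower to 1907 and 2144. The cause of these moves was not tested. Cyclic loess gave 979 higher and 667 lower. Without 1 array, 484 to 605 were higher and 329 to 593 lower. An intensity trend gave 4 lower in switch signals, with Tgfbr1. Levels at either end of the scale limit what can be read for IGHM, IGHG2C, IGHA and the GFP-positive values of Ighg3 and IGHD.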
